A study of Mus musculus with 8 samples.

Results

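The MHC class II presentation genes described here were the 7 mouse genes H2-Aa, H2-Ab1, H2-Eb1, Cd74, H2-DMa, H2-DMb1 and Ciita, taken by gene name from the non-control probes of the arrays. They were read by 9 of 39429 probes, and all 7 were among the 19478 genes tested, of 30325 genes with a probe. The study measured RNA from the lower crypts of the jejunum, cut out by laser from Methacarn-fixed sections, on 8 single-colour Agilent mouse arrays. The mice were Lgr5EGFP-IRES-CreERT2/+ animals of 4 to 6 weeks, which carry a reporter and a Cre allele in the crypt stem cell gene Lgr5. The fasted group (4 arrays) had no food for 24 h before an intravenous injection of 80 mg/kg etoposide, a topoisomerase II poison, and the fed group (4 arrays) received the same injection after normal feeding. Every mouse carried the Lgr5 allele, received etoposide, was put back in a single cage with moistened food and was killed 3 h later, so both groups had access to food after the injection and no array without etoposide was analysed here. Each group held 2 arrays labelled male (replicates 1 and 2) and 2 labelled female (replicates 3 and 4).

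MHC class II molecules show peptides from ingested or internalised protein to CD4+ T cells. An alpha and a beta chain pair in the endoplasmic reticulum around the invariant chain, which fills the peptide groove and steers the complex to endosomes, where proteases cut it down and the DM heterodimer exchanges the last fragment for a peptide. The genes are switched on together by the coactivator CIITA, which is recruited to X and Y boxes in their promoters by the RFX, CREB and NF-Y factors, and interferon gamma is the classical inducer. Dendritic cells, macrophages and B cells carry class II molecules at all times, and cells of the small intestinal epithelium, crypt cells included, can carry them too.

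Letters of the X and Y boxes were found in some of the promoters examined, as matches and not as shown binding sites. No promoter of H2-Ab1, Cd74 or Ciita was examined, so their boxes are not described. The 130 bases before the gene start are shown for 3 members because they differ in matches to the strings searched. They come from the RefSeq promoter table (GRCm38.p6) and are written 5′ to 3′ on the gene's strand, and capitals mark AACNGATG, from the core of the X box, and ATTGG, the Y box, on either strand.
H2-DMb1, chr17:34153061-34153190, plus strand: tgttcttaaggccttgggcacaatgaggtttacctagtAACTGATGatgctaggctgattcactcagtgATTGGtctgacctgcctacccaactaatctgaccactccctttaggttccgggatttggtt
H2-Eb1, chr17:34305737-34305866, plus strand: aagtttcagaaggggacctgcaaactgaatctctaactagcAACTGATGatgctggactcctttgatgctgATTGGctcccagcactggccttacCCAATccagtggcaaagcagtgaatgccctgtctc
H2-Aa, chr17:34287824-34287953, minus strand: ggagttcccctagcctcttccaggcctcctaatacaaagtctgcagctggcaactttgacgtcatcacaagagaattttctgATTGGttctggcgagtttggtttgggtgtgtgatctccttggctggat

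In H2-DMb1 the X box letters started at -92 and the Y box letters at -61 relative to the gene start, and in H2-Eb1 they started at -89 and -59. The H2-Aa window held ATTGG at -48 and no AACNGATG. X boxes with other letters were not searched for, so a window without this string may still hold an X box. H2-DMa has 2 start sites in the table, and neither 130-base window held AACNGATG or ATTGG. In the longer windows counted next, 1 of the 2 held ATTGG and neither held AACNGATG. Of 32851 mouse promoter windows (250 bases before to 50 after the gene start), 2.32% held AACNGATG and 37.4% held ATTGG on either strand, and the letters of the motifs do not allow an overlap. AACNGATG with ATTGG within 60 bases downstream on 1 strand was found in 23 windows (0.07%), among them those of H2-DMb1, H2-Eb1 and the related genes H2-DMb2 and H2-Eb2. The motifs were searched with these promoters in view, so the shares are a description.

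Levels below are log2 of the scanner's processed signal minus the array's 75th percentile of that signal, so 0 is a bright probe and 1 unit is a doubling. The scanner software marks probes well above background, and by this mark the detected share of probes ran from 53.2% to 65.7% over the arrays. Fasted replicate 3 stood apart: its correlations with the other arrays over the tested genes reached 0.93 at most and 0.83 at least, and it was the only array scanned on a second day. The fed array labelled female as replicate 4 went against its label. The X-linked Xist stood at -6.01 there on its brighter probe against 2.43 to 3.33 on the other arrays labelled female, and the Y-linked Eif2s3y stood at -1.39 against -5.61 to -5.07 on them. Values without that array are given beside the comparisons of the class II genes by labelled sex. The labels call the 4 samples of a group biological replicates, and their number limits the precision of every value.

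In these crypt samples 8 of the 9 probes were well above background on all 8 arrays, among them a probe for each of the 7 class II genes. For Ciita this rests on its only probe, of unusual sequence (described below), and binding of other RNA to it was not tested. All 7 had a lower mean in the fasted than in the fed arrays, by 0.23 to 0.62 on the log2 scale, against a median of -0.06 over all genes, and 55.4% of all genes had a lower fasted mean. None of the 7 passed the test, and no gene of the whole table did (0% called, limma with Benjamini-Hochberg adjustment, threshold 0.05). At an unadjusted p under 0.05 the count was 0 of 7 against 5.98% of all genes. The fasted and fed arrays overlapped for 7 of 7 genes, and separate groups occurred in 4.97% of all genes.

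The alpha chain gene H2-Aa encodes the chain that pairs with the H2-Ab1 product to form I-A. It was read by 1 probe at chr17:34421285-34421344 (mm9, as the array design gives it, file direction minus). The probe is shown because it is the sequence behind the values.
H2-Aa probe: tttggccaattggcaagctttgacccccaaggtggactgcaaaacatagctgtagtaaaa

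H2-Aa stood at 2.65, 2.07, 3.59 and 2.80 in fasted replicates 1 to 4. In fed replicates 1 to 4 it stood at 3.23, 3.85, 2.54 and 2.64. The highest and the next highest values came from fed replicate 2 and fasted replicate 3, the lowest from fasted replicate 2, and the groups overlapped over most of their range. The difference was -0.29 (SE 0.40, 95% interval -1.20 to 0.62, limma adjusted p = 0.857, n = 4 and 4).

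H2-Ab1, the beta chain of I-A, was read by 2 probes. The brighter probe (chr17:34406296-34406355, mm9) stood at 1.61, 1.49, 3.45 and 2.46 in fasted replicates 1 to 4 and at 2.59, 3.54, 2.37 and 2.41 in fed replicates 1 to 4. Fasted replicates 1 and 2 lay below every fed array, while fasted replicate 3 lay above 3 of the 4 fed arrays. The difference was -0.48 (SE 0.46, 95% interval -1.52 to 0.57, limma adjusted p = 0.807). The second probe starts 9 bases further on, shares 51 bases with the first and differs from it in them by T51C, counted from 1 at the 5′ end of the brighter probe. Its order of arrays was close to that of the first (r = 0.94 over 8 arrays), its value was 0.24 to 1.14 lower in each array with the widest gap in fasted replicate 3, and its difference was -0.69 (SE 0.38, limma adjusted p = 0.765 with every probe tested on its own).

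H2-Eb1 is the beta chain of I-E, and its probe lay at chr17:34453075-34453134 (mm9). It stood at 2.94, 2.62, 4.09 and 3.69 in fasted replicates 1 to 4 and at 3.95, 4.74, 3.57 and 3.57 in fed replicates 1 to 4. Fasted replicates 1 and 2 were again the lowest of the 8 arrays, and fed replicate 2 was the highest. H2-Eb1 had the widest feeding difference of the 7, a fasted level 1.54-fold lower (-0.62 on the log2 scale, SE 0.39, 95% interval -1.52 to 0.27, limma adjusted p = 0.788). H2-Ea-ps, the alpha partner gene listed as a pseudogene, was well above background on 1 of 8 arrays only, fasted replicate 1.

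Cd74 is the invariant chain, the chaperone of the class II pair. It stood at 3.90, 4.12, 5.55 and 4.99 in fasted replicates 1 to 4 and at 5.02, 5.68, 4.56 and 5.19 in fed replicates 1 to 4. The 2 lowest arrays were fasted replicates 1 and 2, and fasted replicate 3 reached almost the value of fed replicate 2, the highest. The difference was -0.47 (SE 0.38, 95% interval -1.34 to 0.39, limma adjusted p = 0.794).

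The DM heterodimer edits the peptides in the groove, and both of its chains were read. H2-DMa, the alpha chain (chr17:34274300-34274863, mm9, a probe that spans a gap of the genome), stood at 0.10, 0.79, 2.17 and 1.33 in fasted replicates 1 to 4 and at 0.56, 2.13, 1.23 and 1.45 in fed replicates 1 to 4. Replicate 1 was the lowest array in each group, and fasted replicate 3 and fed replicate 2 were nearly level at the top. The difference was -0.24 (SE 0.44, 95% interval -1.24 to 0.76, limma adjusted p = 0.891). H2-DMb1, the beta chain (chr17:34297109-34297168, mm9), stood at 1.59, 1.94, 3.47 and 2.72 in fasted replicates 1 to 4 and at 2.36, 3.83, 2.40 and 2.89 in fed replicates 1 to 4. Fasted replicates 1 and 2 were the only arrays below 2, and the other fasted arrays lay inside the fed range. The difference was -0.44 (SE 0.46, 95% interval -1.50 to 0.61, limma adjusted p = 0.816). A further probe listed under H2-DMb1 lies upstream (chr17:34290109-34290168, mm9), was well above background on 3 of 8 arrays, with values from -5.04 to -3.18, and was not tested.

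Ciita encodes the coactivator that switches the other 6 on. Its probe (chr16:10526568-10526627, mm9) stood at 3.04, 3.67, 2.53 and 3.94 in fasted replicates 1 to 4 and at 2.91, 3.50, 3.82 and 3.86 in fed replicates 1 to 4. Fasted replicate 3, high for every other member, was here the lowest of the 8 arrays, and fasted replicate 4 was the highest. The difference was -0.23 (SE 0.35, 95% interval -1.02 to 0.56, limma adjusted p = 0.868), and it was 0.13 without fasted replicate 3. The Ciita probe is unusual in sequence: 39 of its 60 bases are A, 15 are C, and it holds AAAAC 8 times, as many as any probe on the array. In 8 other probes chosen afterwards because they hold at least 3 such units in a row, r with the Ciita probe over the 8 arrays ran from -0.53 (Cdcp1) to 0.97 (1500032F14Rik), with Prg4 at 0.95 and Cbln2 at 0.94, against a median of -0.09 over all probes that passed the filter. Binding of other RNA to the Ciita probe was not tested.

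**Figure D1:**
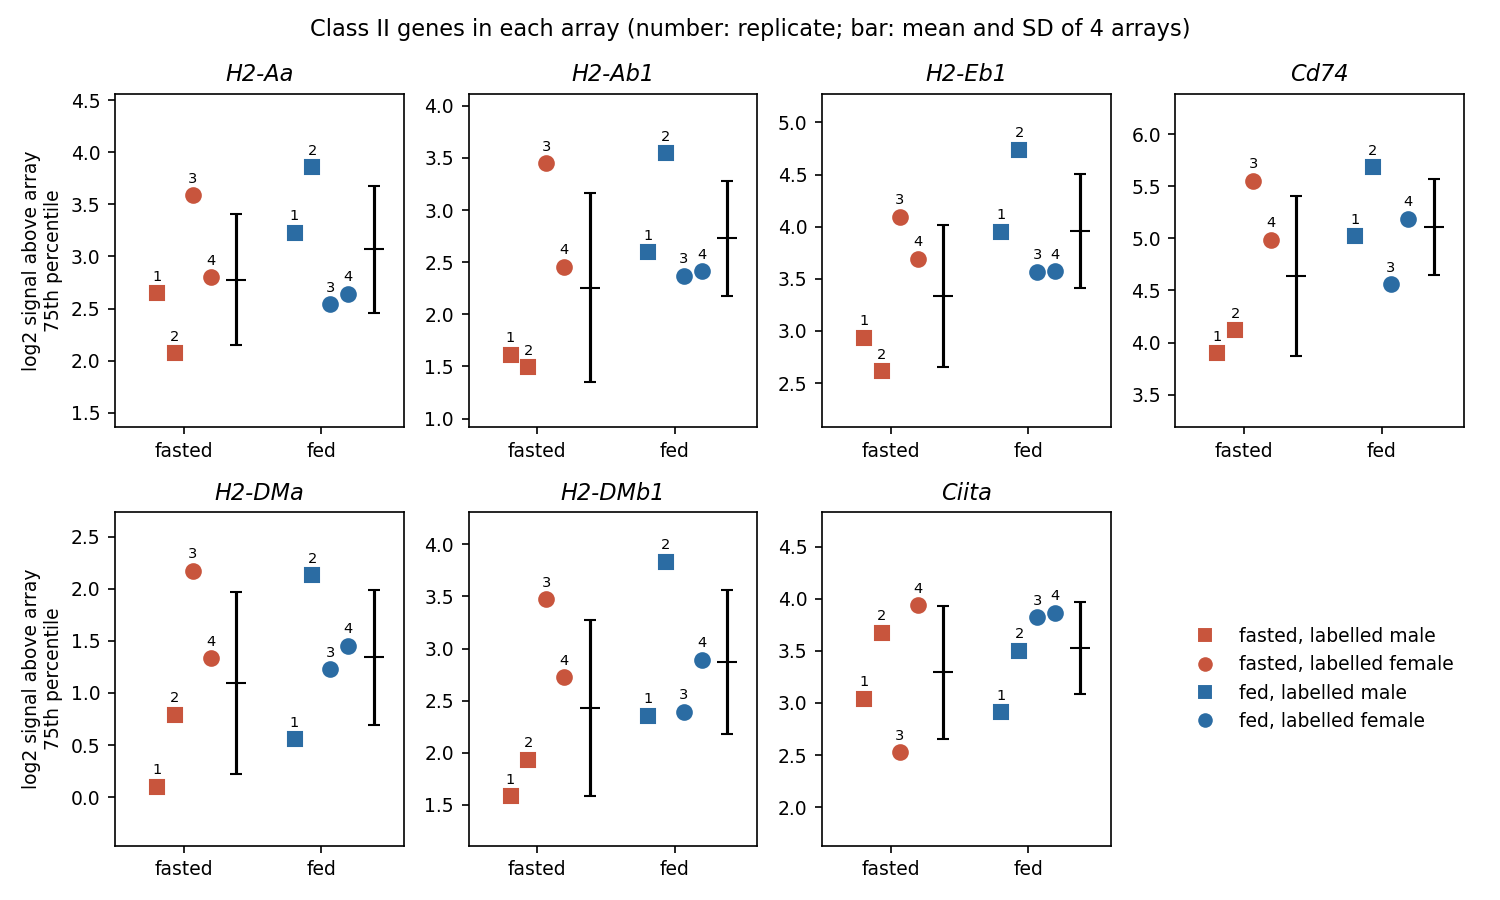
Log2 signal above the array's 75th percentile (y axis) for each of the 7 class II genes, 1 panel a gene with its own axis of equal span, in the 4 fasted (red) and 4 fed (blue) arrays. Squares are arrays labelled male, circles arrays labelled female, numbers are replicates and black bars give the mean and SD; fasted replicate 3 and fed replicate 2 are the top pair for every gene but Ciita.

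The 6 genes other than Ciita were high in the same pair of arrays but differed in the order of the others. Their 15 pairwise correlations over the 8 arrays ran from 0.62 to 0.96 with a median of 0.91, and with the group means removed the median was 0.90. Fed replicate 2 and fasted replicate 3 gave the 2 highest values for 6 of 6 genes. Fasted replicates 1 and 2 gave the lowest value for 3 genes each. Without fasted replicate 3 and fed replicate 2 the pairwise values spread from -0.11 to 0.98 with a median of 0.74 over 6 arrays. With Ciita the 6 genes had r from -0.52 (H2-Aa) to 0.02 (H2-DMa). These correlations are over arrays that share their scaling and are given as a description.

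The levels also went with the overall signal of the arrays. The detected share was lowest in fed replicate 1 (53.2%), fasted replicate 3 (53.6%) and fed replicate 2 (55.6%), and it correlated with H2-Aa at r = -0.87, with H2-Ab1 and H2-Eb1 at -0.73, with Cd74 at -0.61, with H2-DMb1 at -0.51 and with H2-DMa at -0.32 over 8 arrays. For Ciita the sign was opposite (r = 0.79). With this share as a covariate the median feeding difference of the 7 genes was -0.22 in place of -0.44, and the part of overall signal in the result was not tested.

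Slides gave differences within batches, since 3 of the 5 slides held 1 fasted and 1 fed array. On the slide of fasted replicate 1 and fed replicate 1 the median difference of the 7 genes was -0.77, with 6 of 7 lower in the fasted array. The slide of fasted replicate 2 and fed replicate 3 gave -0.46, with 7 of 7 lower. Its fasted array was labelled male and its fed array female, so feeding and labelled sex cannot be told apart there. The slide of fasted replicate 4 and fed replicate 4 gave 0.04, with 3 of 7 lower. Both were labelled female, but fed replicate 4 is the array whose Xist and Eif2s3y signals went against its label. Cd74, H2-DMa and H2-DMb1 were lower in the fasted array on all 3 slides, 3 of 7 genes where 21.8% of all genes were. Arrays of 1 slide deviated together from their group means over all genes (r = 0.37, 0.54 and 0.61). With slide as a fixed block in place of labelled sex, which leaves 2 residual degrees of freedom, the median difference was -0.47 and no gene passed. That fit takes its feeding differences from the 3 shared slides and does not hold labelled sex. Cd74 then differed by -0.59 (SE 0.21, unadjusted p = 0.027, limma adjusted p = 0.346), H2-DMb1 by -0.47 (SE 0.17), H2-Ab1 by -0.60 (SE 0.22) and H2-Eb1 by -0.62 (SE 0.24). These 4 of 7 genes had an unadjusted p under 0.05, where 13% of all genes did in that fit. With slide as a random block the SE were 0.25 for Cd74 and 0.27 for H2-Eb1, and the smallest limma adjusted p of the 7 was 0.335. The remaining slides held fasted replicate 3 and fed replicate 2 alone.

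**Figure D2:**
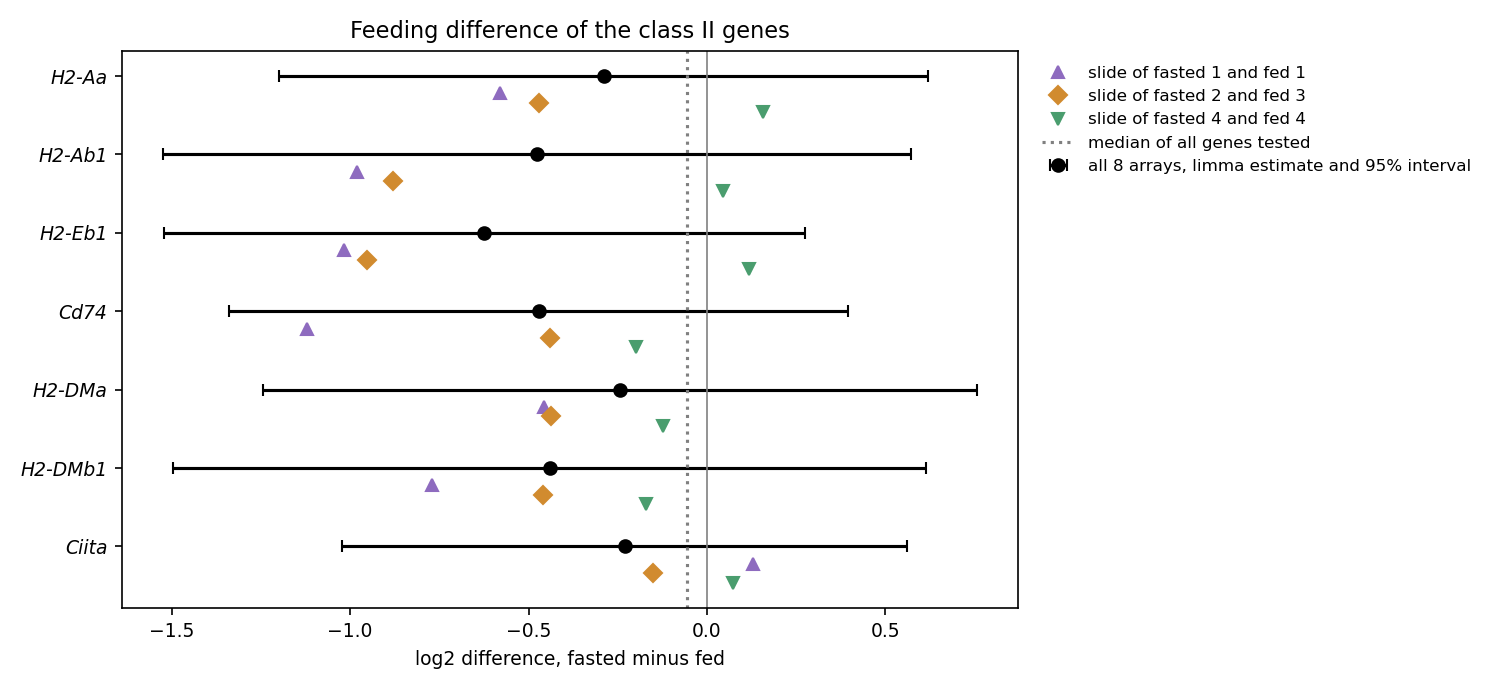
Log2 difference between fasted and fed arrays (x axis, negative where fasted is lower) for each class II gene. Black points and lines are limma estimates with 95% intervals from 8 arrays, coloured symbols are differences within the 3 shared slides (1 fasted and 1 fed array each), and the dotted line is the median of all genes at -0.06; every interval crosses 0.

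Leaving out 1 array left the median difference of the 7 genes below 0 each time but moved its size. It was -0.76 without fasted replicate 3, -0.69 without fed replicate 3, -0.52 without fed replicate 4, -0.23 without fasted replicate 1 and -0.08 without fed replicate 2. Without fed replicate 2, H2-Aa (0.01), H2-DMa (0.20) and H2-DMb1 (0.03) had fitted differences above 0. The fitted differences of Cd74, H2-Ab1 and H2-Eb1 stayed below 0 in all 27 alternatives run, from -0.17 to -0.77 for Cd74, from -0.08 to -0.98 for H2-Ab1 and with -0.28 as the value nearest 0 for H2-Eb1.

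The feeding differences of the class II genes had opposite signs in the arrays labelled male and female. In the arrays labelled male, H2-Eb1 was 2.97-fold, H2-Ab1 2.86-fold, Cd74 2.53-fold, H2-DMb1 2.52-fold and H2-Aa 2.27-fold lower after fasting than in fed mice, on the mean of 2 arrays each. For these 5 of 7 genes both fasted arrays lay below both fed arrays, which held for 21.2% of all genes. H2-DMa was 1.86-fold lower with overlapping arrays, and Ciita differed by 0.15 on the log2 scale. In the arrays labelled female the 6 genes other than Ciita were higher after fasting, by 0.32 (H2-Eb1) to 0.60 (H2-Aa) on the log2 scale, and both fasted arrays lay above both fed arrays for H2-Aa, H2-Ab1 and H2-Eb1 (3 of 7, against 17.6% of all genes). Over the 7 genes the median was -1.33 in arrays labelled male and 0.41 in arrays labelled female, where all genes had medians of 0.01 and -0.01. Without fed replicate 4, which leaves 1 fed array labelled female, the median there was 0.58, from -0.59 for Ciita to 0.71 for Cd74.

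The difference between these 2 effects was tested as an interaction of feeding and labelled sex. It was -1.89 for H2-Eb1 (SE 0.45, 95% interval -2.94 to -0.84) and -2.08 for H2-Ab1 (SE 0.60, 95% interval -3.47 to -0.68). Cd74 gave -1.74 (SE 0.48), H2-Aa -1.78 (SE 0.52), H2-DMb1 -1.79 (SE 0.72) and H2-DMa -1.31 (SE 0.79), while Ciita gave 0.76 (SE 0.68). None passed: the limma adjusted p was 0.757 for each of the 7, and 0% of all genes were called. At an unadjusted p under 0.05 the count was 5 of 7 (H2-Aa, H2-Ab1, H2-Eb1, Cd74 and H2-DMb1), all below 0, where 3.17% of all genes reached it and 1.5% did so below 0. Without regard to p, 6 of 7 were below 0 against 48.3% of all genes. The absorptive enterocyte markers, given with the other lists, had interactions above 0 for 19 of 19 genes. Interactions were below 0 for 6 of 7 interferon gamma signalling genes (median -0.72) and 7 of 7 trafficking and turnover genes (median -0.37). The same held for 6 of 8 peptide loading genes (median -0.58) and 20 of 26 class I genes (median -0.22). Fewer were below 0 among the RFX, NF-Y and CREB factors (1 of 5) and the interferon gamma induced genes (7 of 18). In each of these lists 0 were called. In the other settings 2 to 6 of 7 class II genes had an unadjusted p under 0.05, 2 with the detected share as a covariate.

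Leaving out arrays changed the count of calls in this comparison. Without fasted replicate 4 the limma adjusted p was 0.027 for H2-Ab1, 0.031 for H2-Aa, 0.032 for H2-Eb1 and 0.038 for Cd74, 4 of 7 genes called, in a fit that called 2206 of 18561 genes (11.9%) and in which fasted replicate 3 was the only fasted array labelled female. Without fed replicate 2 the fit called 1 gene (0.00516%), not one of the 7. Without fed replicate 4, the array whose Xist and Eif2s3y signals went against its label, the median interaction was -1.90 and 4 of 7 reached an unadjusted p under 0.05, and without both fasted replicate 3 and fed replicate 4 the count was also 4 of 7, with 0 called in both. The 75th percentile was the main scaling. Centring each array on its median moved the median interaction of all genes from 0.04 to -0.43, and the authors' deposited matrix moved it to 0.23, and under each of them 6 of 7 class II genes stayed below 0.

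**Figure D3:**
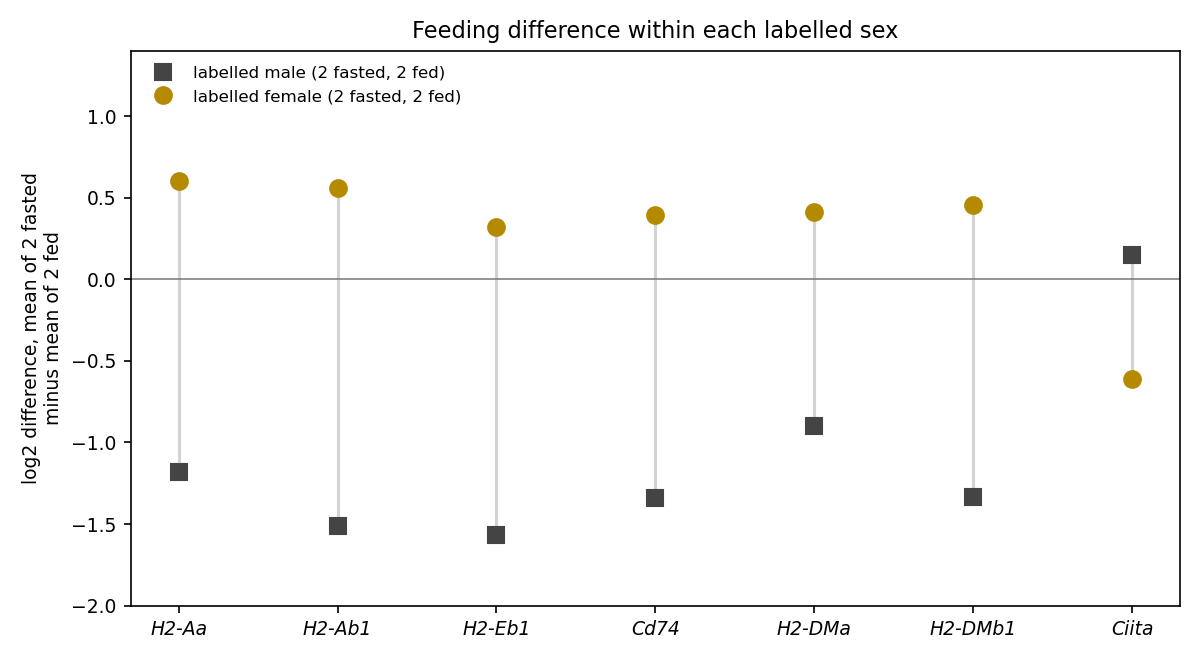
Log2 difference between the mean of 2 fasted and the mean of 2 fed arrays (y axis) for each class II gene, within arrays labelled male (squares) and arrays labelled female (circles). For the 6 genes other than Ciita the square lies below 0 and the circle above 0; 1 of the fed arrays labelled female, replicate 4, held the Y-linked Eif2s3y signal and no Xist signal.

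Labelled sex itself gave smaller differences. Averaged over feeding, 6 of 7 genes were lower in arrays labelled male (48.8% of all genes were), with a median of -0.36 and a range from -0.65 for H2-DMa (SE 0.44) to 0.06 for H2-Aa (SE 0.40). None was called, the limma adjusted p being 1.00 for each, and 0% of all genes were called. At an unadjusted p under 0.05 the count was 0 of 7, against 2.2% of all genes. The median was -0.11 without fasted replicate 3, -0.18 without fasted replicate 1, -0.58 without fed replicate 3, -0.70 without fed replicate 2 and -0.44 without fed replicate 4.

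None of the other genes of the pathway was called for feeding. Of the 8 proteases, reductase and inhibitor that prepare peptides and trim the invariant chain, 5 were higher and 3 lower in fasted arrays with 0 called, and none reached an unadjusted p under 0.05. Ctss, the protease best known for trimming the invariant chain, differed by 0.09 (SE 0.22), and Ifi30, the thiol reductase GILT, by 0.09 (SE 0.15). Ctsd, an aspartic protease, differed by -0.39 (SE 0.26). Of the RFX, NF-Y and CREB factors, 5 of 7 were tested, and Rfx5 differed by -0.06 (SE 0.37), Rfxank by 0.12 (SE 0.29), Creb1 by 0.10 (SE 0.42), Nfyb by 0.01 (SE 0.21) and Nfyc by 0.25 (SE 0.17). Rfxap was not detected on any of the 8 arrays, that is, not well above background.

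Genes of interferon gamma signalling, the classical inducer, gave 5 of 7 higher in fasted arrays and 0 called. Irf1 differed by 0.33 (SE 0.32), and the receptor chains Ifngr1 and Ifngr2 by -0.33 (SE 0.33) and -0.32 (SE 0.47). Of 18 interferon gamma induced genes tested, 12 had a higher and 6 a lower fasted mean (median 0.04, 0 called). Class I presentation gave 15 of 26 higher with a median of 0.01 and 0 called. The chaperone gene Canx differed by 0.45 (SE 0.18, unadjusted p = 0.033, limma adjusted p = 0.788), the only gene of the 26 with an unadjusted p under 0.05. The class Ib genes H2-T10 and H2-T3 differed by 0.76 (SE 0.35) and 1.22 (SE 0.64), and Nlrc5, the class I counterpart of Ciita, by -0.42 (SE 0.34). Trafficking and turnover gave 4 of 7 lower and 0 called, with the class II ubiquitin ligase gene Marchf1 at -0.47 (SE 0.20, unadjusted p = 0.047, limma adjusted p = 0.788). The Marchf1 probe was very bright, with means of 7.19 in fasted and 7.66 in fed arrays.

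Of the other class II genes on the array, H2-Oa and H2-Ob, which encode the DM inhibitor DO, passed the filter and differed by -0.24 (SE 0.47) and -0.41 (SE 0.44). H2-Eb2 was detected on 0 of 8 arrays, and H2-DMb2 on 3 of 8, all fasted. Among the costimulatory genes the brighter probe of Cd80 differed by -0.52 (SE 0.41) while its other probe, also detected on 8 of 8 arrays, had means of -0.32 in fasted and -0.31 in fed arrays, and Icosl differed by -0.24 (SE 0.36), and Cd86 and Cd274 were detected on 0 of 8 arrays.

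The cells that could supply these transcripts were looked at through marker lists. In bulk tissue, fewer cells of a type and less RNA per cell cannot be told apart. The epithelial gene Epcam ran from 2.95 to 3.56 in fasted and from 3.00 to 3.64 in fed arrays, and Vil1 from 3.22 to 4.01 and from 2.81 to 3.18. Leukocyte genes were present too. Ptprc, the pan-leukocyte gene encoding CD45, ran from -1.88 to -1.18 in fasted and from -2.15 to -1.28 in fed arrays. Cd68, of macrophages, ran from -0.62 to 0.53 and from -0.21 to 0.39 on its brighter probe. Its other probe, well above background on 7 of 8 arrays, ran from -3.80 to -1.37 in fasted and from -4.12 to -2.61 in fed arrays. Cd3e, of T cells, ran from -1.19 to 0.28 and from -0.54 to 0.24. Itgax, of dendritic cells, was well above background on 2 fasted and 4 fed arrays. Its level ran from -4.30 to -1.34 in fasted and from -3.58 to -2.67 in fed arrays. The highest levels were in the detected fasted arrays, replicate 3 (-1.34) and replicate 1 (-1.69). Csf1r, of macrophages, had 3 probes at differing heights, from 0.39 to 1.46, from 1.53 to 2.21 and from 3.29 to 4.81 over the arrays, and the brightest was lowest in fasted replicate 3 while the others were high there. B cell genes differed among themselves. Cd79b was detected on 8 of 8 arrays, from 0.89 to 1.43 in fasted and from 0.68 to 1.29 in fed arrays, and the tested probe of Cd22 had means of 4.27 ± 1.71 and 4.94 ± 0.93 (SD, n = 4 each). Ms4a1 was detected on 0 of 8 arrays, and Cd79a was detected on 2 arrays with each of its 2 probes. The stem cell gene Lgr5 itself was detected on 0 of 8 arrays.

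Over the whole lists, 15 of 22 tested dendritic cell and macrophage markers, 7 of 10 B and plasma cell markers and 8 of 15 T cell, NK and pan-leukocyte markers were lower in fasted arrays, with medians of -0.23, -0.36 and -0.02 and 0 called in each. The mean level of the dendritic cell and macrophage list ran from 0.39 to 0.56 in fasted and from 0.55 to 0.73 in fed arrays. It includes very bright probes: Itgam had means of 7.14 in fasted and 7.53 in fed arrays, and Siglech 4.57 and 5.23. Whether these probes read leukocyte RNA was not tested. That of the B and plasma cell list ran from -1.37 to 0.33 and from -0.15 to 0.21, and that of the T cell, NK and pan-leukocyte list from -0.81 to -0.38 and from -1.0025 to -0.41, with fed replicate 1 the lowest of the 8 arrays. Beside the mean of the 6 class II genes over the 8 arrays, these lists had r = 0.77, -0.54 and 0.60 (Spearman rho 0.69, -0.33 and 0.67), and without the 2 arrays farthest from each list's median r was 0.31, -0.01 and 0.76. For 3 of 7 dendritic cell and macrophage markers with a further probe above background, a further probe ran opposite to the probe tested. The part of leukocytes in the class II values was not tested.

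Markers of absorptive enterocytes ran opposite to the class II genes. All 19 tested markers were higher in fasted arrays, with a median of 1.17 and 15 of 19 at an unadjusted p under 0.05 against 5.98% of all genes, and 0 called. Mep1b, a brush border protease, differed by 1.73 (SE 0.41), Enpep, an aminopeptidase, by 1.92 (SE 0.44), Slc7a9, an amino acid transporter, by 1.17 (SE 0.24) and Apob, of chylomicrons, by 0.89 (SE 0.22). The mean of the list was 1.91, 2.05, 0.40 and 1.26 in fasted replicates 1 to 4 and 0.20, -0.66, 0.49 and 0.44 in fed replicates 1 to 4. The 2 fasted arrays with the most enterocyte signal, replicates 1 and 2, were those with the least class II signal, and fed replicate 2 had the least enterocyte and the most class II signal. Over the 8 arrays r was -0.87 (Spearman rho -0.79), and without fasted replicates 1 and 2 it was -0.65. Their interaction with labelled sex was also opposite in sign to that of the class II genes: 0 of 19 were below 0, the median was 1.36, and 6 of 19 had an unadjusted p under 0.05 against 3.17% of all genes, with 0 called. Mep1b gave 1.99 (unadjusted p = 0.0031 by limma). Interactions of these markers without fed replicate 4 are not given here. The part of enterocyte content in the class II values and in their interaction was not tested.

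Over all 8 arrays, Paneth and stem cell lists had weaker correlations with the class II genes than the leukocyte and enterocyte lists. Of 8 tested Paneth markers 8 were lower in fasted arrays with a median of -0.48 and 0 called, and r with the class II mean was 0.37. Of 14 tested crypt base stem cell markers 7 were lower with a median of -0.03 and 0 called, with Olfm4 at -1.11 (SE 0.24), and r was 0.20. The pan-epithelial list had 6 of 11 lower, a median of -0.05, 0 called and r = 0.65, which was 0.19 without fasted replicate 3 and fed replicate 2.

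**Figure D4:**
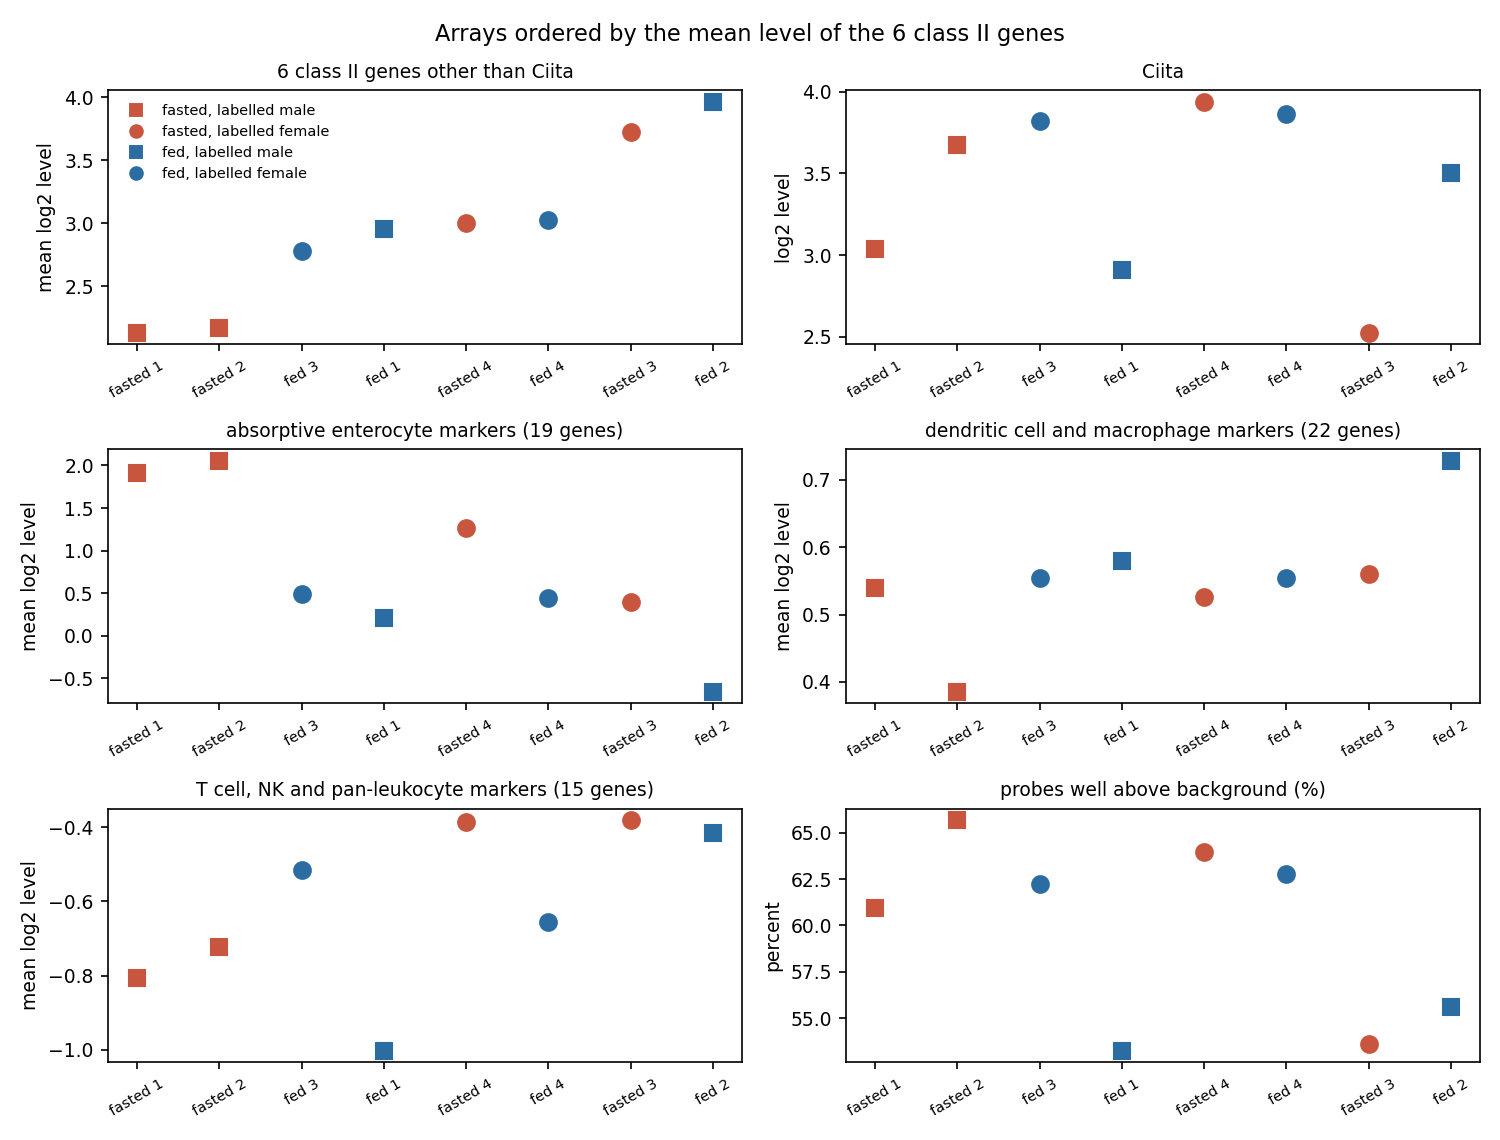
Mean log2 level (y axes, relative to the array's 75th percentile) of the 6 class II genes, Ciita, 3 marker lists and the percent of probes well above background, in 8 arrays ordered from left to right by the class II mean. Red is fasted, blue is fed, squares are labelled male and circles labelled female. From the first to the last array the class II panel climbs from 2.13 to 3.96. The enterocyte panel goes from 1.91 at fasted replicate 1 to -0.66 at fed replicate 2. Its fall is not steady, with 2.05 at fasted replicate 2 and 1.26 at fasted replicate 4.

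Outside the class II genes, the genes most like them across the arrays were found by correlation with the mean of H2-Aa, H2-Ab1, H2-Eb1 and Cd74. The 10 closest were Tnfaip2 (r = 0.97), Fam83h, Kri1, Vcan, Cdcp1, Tnfaip8l1, Rhog, Dynlt3, Atp6v1g2 and Ier2 (r = 0.95), over 8 arrays and of 19371 genes, of which 99 (0.511%) had r of at least 0.9. Tnfaip2, a gene induced by tumour necrosis factor, stood at -1.32, -1.61, 0.59 and -0.46 in fasted replicates 1 to 4 and at -0.12, 0.74, -0.14 and -0.21 in fed replicates 1 to 4. Its 2 lowest and 2 highest arrays were those of the class II mean that it was selected to follow. Vcan, the proteoglycan versican, ran from -1.77 to 0.25 and Ier2, an immediate early gene, from 0.16 to 1.59. The likeness is a description of 8 arrays and carries no test.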

How the data were processed

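The members and gene lists were chosen with earlier results of these data known. The authors deposited 1 Agilent Feature Extraction 11.5.1.1 output per array, with red processed signal intensity and a flag for probes well above background, per the file headers (genome mm9). They also deposited a matrix of log2 values, whose scale, centring and offset are not given in the sources used here; it ranked probes as the processed signal did (Spearman at least 0.9999 in each array), and was used as an alternative. Control spots were left out and spots of 1 probe averaged. Probes took their gene from RefSeq by accession (27649) or from the file (11780). For each gene the brightest probe detected on 4 or more arrays was kept (19478 genes). Its log2 intensity, scaled to the array's 75th percentile, was fitted with limma 3.58.1 in R 4.3.3 (lmFit, eBayes with trend, feeding and labelled sex, and their interaction), with Benjamini-Hochberg adjustment over all genes at 0.05. The feeding fit was tried on simulated data. Recovery was 0.05% for a log2 difference of 1, 59.15% for 2 and 82.05% for 3. The class II feeding differences, from -0.62 to -0.23, were smaller than any size tried. The lack of calls therefore cannot decide whether differences of that size are present. Named were all members, up to 4 genes a list with the smallest unadjusted feeding p, every measured gene of the lists on class II chains, proteases, transcription factors and interferon signal, defining markers and the 10 most like genes. Other scalings, background corrections, filters, probe rules, variance models, blocks and arrays left out were run as alternatives. Some genes of these lists are not reported here by name.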

Additional observations from a re-analysis of the deposited data

Results flagged for a closer look

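In each group of 4 arrays, the highest and lowest values of the 7 class II genes and of the other class II probes were set against Dixon's 95% critical value (0.829 for 4 samples). Of 32 groups, 2 went past it, where chance gives about 1 in 20. H2-Ea-ps stood at -0.94 in fasted replicate 1, where it was well above background, and at -5.99 to -5.18 in the other fasted arrays. One of the 3 H2-Ob probes stood at -4.32 in fasted replicate 3, but it was detected on 0 of 8 arrays. No value of the 7 class II genes went past this limit.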

How the results depend on the processing

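The median feeding difference of the 7 genes stayed below 0 in all 27 alternatives, from -0.76 to -0.08, which is also the leave-one-out range, and no gene was called in any of them, the smallest limma adjusted p of any gene being 0.065. The median labelled sex difference stayed below 0 in 23 alternatives (leave-one-out -0.70 to -0.11), with 0 to 5 genes called when arrays were left out, the 5 without fasted replicate 3. The median interaction stayed below 0 in 23 (leave-one-out -2.10 to -1.41), with 0 to 2206 genes called when arrays were left out. Feeding differences turned sign for Ciita (0.13 without fasted replicate 3, 0.14 without it and fed replicate 4, 0.017 with slide as a fixed block; -0.44 to 0.13 over arrays left out), and when arrays were left out for H2-Aa (-0.63 to 0.014, reversed without fasted replicate 2 or fed replicate 2), H2-DMa (-0.54 to 0.20, without fasted replicate 1 or fed replicate 2) and H2-DMb1 (-0.77 to 0.034, without fed replicate 2). The labelled sex difference turned sign for H2-Aa under quantile normalization (-0.0048), normexp (-0.085), normexp with quantiles (-0.0017), the detected share as a covariate (-0.14) and without fed replicates 2, 3 or 4 (-0.25 to 0.39 over arrays left out), for H2-Ab1 with array weights (0.048) and without fasted replicate 3 (-0.76 to 0.043), and for H2-Eb1 with array weights (0.11) and without fasted replicates 2 or 3 (-0.52 to 0.098). The Ciita interaction turned to -1.01 with the covariate. The cause was not tested.

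Same-numbered arrays deviated together for 2 of 4 numbers (r = 0.37, -0.47, -0.45 and 0.61). These were replicates 1 and 4, whose fasted and fed arrays shared a slide, and the numbers were not taken as pairs. With the replicate block the median feeding difference was -0.44 and 0 genes were called. With slide as a random block it was -0.41. The scan day was not run on its own, since 1 array alone made up the second day. The number of arrays limits every value, and the 95% intervals in the text give the differences they leave possible.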
